A study of Homo sapiens with 3 samples.

Results

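Keratin genes of basal and squamous epithelium were examined together with TP63 and CD44 in the 5637 bladder cancer line and its gemcitabine-resistant derivative. The genes were KRT5, KRT6A, KRT6B, KRT6C, KRT14, KRT15, KRT16, KRT17, TP63 and CD44, which are 10 of the 29960 genes of the deposited table and were taken by symbol. RNA came from single-cell clones, so that each library is 1 clone, and the study describes 3 clones per group. Counts were used for the 3 libraries that carry a sample label, 1 of the parental line (genotype WT) and 2 of the resistant line (genotype Gemcitabine Resistant), named parental 1, resistant 1 and resistant 2. All 3 were labelled as untreated and were grown in RPMI medium with FBS, so no library was under gemcitabine when RNA was taken. The labels describe the selection of the resistant cells as an acute treatment, and the study's text describes it as continuous exposure. Gene reads totalled 14475531 in parental 1, 15836788 in resistant 1 and 17461941 in resistant 2.

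Keratins form filaments as pairs of a type I and a type II chain. KRT5 (type II) and KRT14 (type I) are the pair of basal cells of stratified epithelia and of the urothelium, and KRT15 is a further type I keratin of basal cells. KRT6A, KRT6B and KRT6C (type II) pair with KRT16 and KRT17 (type I) in wounded, hyperproliferative and squamous epithelium. TP63 encodes p63, a transcription factor that maintains basal cells and activates basal keratin genes, and CD44 is a surface receptor for hyaluronan that is high on basal urothelial cells. KRT5, KRT14 and CD44 are in common use as markers of basal bladder cancers.

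In the 3 labelled libraries KRT5 was the gene of the set with the largest fold change and the one that passed the test: it fell from 3829 reads in the parental library to 160 and 240 reads in the resistant libraries. KRT17 was lower in both resistant libraries as well, but did not pass the test. The 2 resistant clones were close to each other for KRT15, TP63 and CD44, and at least 2-fold apart for KRT6A, KRT6B, KRT14, KRT16 and KRT17. By the authors' group means, which include further clones, the resistant line was 5.64-fold lower for KRT5, 41.4-fold lower for KRT6A and 10.1-fold lower for KRT6B, with no error or test. KRT15, TP63 and CD44 stayed within 1.58-fold of the parental library in both clones.

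The 3 KRT6 genes are shown first as sequence, because their rows in the table cannot be fully separated. All 3 hold the same 269 coding bases in exon 1, on the minus strand of chromosome 12 at chr12:52492773-52493041 (KRT6A), chr12:52451663-52451931 (KRT6B) and chr12:52473322-52473590 (KRT6C), by GENCODE 29 on GRCh38. The 272 bases of KRT5 exon 1 that align to them with gaps (chr12:52519866-52520137, minus strand) are given below them. Capitals mark the 58 KRT5 bases that differ from the KRT6 stretch, 49 substituted and 9 without a counterpart in it.
KRT6A, KRT6B and KRT6C: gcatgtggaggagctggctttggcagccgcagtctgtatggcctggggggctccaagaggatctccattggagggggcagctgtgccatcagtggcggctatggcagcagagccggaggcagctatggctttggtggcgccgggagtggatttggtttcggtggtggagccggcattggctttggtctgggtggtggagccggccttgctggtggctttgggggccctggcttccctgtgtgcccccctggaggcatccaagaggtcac
KRT5: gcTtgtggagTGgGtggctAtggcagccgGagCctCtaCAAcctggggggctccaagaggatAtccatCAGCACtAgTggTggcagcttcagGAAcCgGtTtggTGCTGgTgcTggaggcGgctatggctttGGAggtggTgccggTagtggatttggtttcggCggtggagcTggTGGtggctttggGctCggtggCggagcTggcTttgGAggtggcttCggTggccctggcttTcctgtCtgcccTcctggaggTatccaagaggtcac
The alignment also leaves 6 KRT6 bases without a KRT5 counterpart, and 77.0% of its 278 columns are identical. Of all 50-base words in the annotated transcripts of a gene, 32.1% of KRT6A's, 47.1% of KRT6B's and 44.4% of KRT6C's also occur in another gene. This share was 16.8% for KRT14 and 16.5% for KRT16, which share words with each other and with KRT16 pseudogenes. It was 9.02% for KRT17, 2.17% for KRT5 and 0.642% for KRT15, and 0 for TP63 and CD44. Reads from the shared bases cannot be assigned to 1 gene, and how the authors treated them is not given in the sources used here. Values of KRT6A, KRT6B and KRT6C, and to a lesser degree KRT14 and KRT16, are therefore uncertain.

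A promoter is shown for KRT5, the gene with the largest fold change of the 10 in the labelled libraries. RefSeq promoter windows (250 bases before to 50 after the start, GRCh38.p14) were at hand for 3 of the 10 genes, KRT5, TP63 and CD44. The 250 bases before the KRT5 start, at chr12:52520395-52520644 on the minus strand, are printed with their match to the p63 consensus in capitals.
KRT5 promoter: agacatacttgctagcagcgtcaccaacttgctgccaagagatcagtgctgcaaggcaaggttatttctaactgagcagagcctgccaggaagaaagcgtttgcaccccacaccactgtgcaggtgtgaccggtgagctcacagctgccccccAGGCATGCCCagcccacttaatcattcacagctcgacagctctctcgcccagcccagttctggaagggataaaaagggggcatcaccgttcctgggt
The match begins 97 bases before the start. The p63 consensus was searched as a single run of 10 bases with CATG fixed at its centre. Among the 3 windows it was found in that of KRT5, and it was found in 551 of 35116 promoters (1.57%). On either strand, AP-1 (TGANTCA) was in 0 of the 3 windows and in 7.71% of all promoters. The letters of the TATA box (TATAAA) were in 1 window, that of TP63, against 11.5% of all. That match lay after the start, from base 45, on the strand opposite to the gene. The GC box (GGGCGG) was in 1, that of CD44, against 45% of all. Only exact matches were counted, so near forms of a motif, in the KRT5 window too, were not seen. These are matches of letters in a window and say nothing of binding in these cells.

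Levels were first compared per length, as FPKM (reads per kilobase of the table's gene length and per 1000000 gene reads). In parental 1, KRT5 at 104.5 FPKM and KRT17 at 103.9 FPKM were the highest of the 10 and did not differ beyond their counting error. CD44 followed at 72.7, TP63 at 20.4, KRT15 at 15.8, KRT14 at 5.07, KRT6A at 4.49, KRT16 at 3.03 and KRT6B at 0.394 FPKM, and KRT6C held 0 reads. The counting intervals of KRT14 and KRT6A overlapped in that library. In both resistant libraries CD44 was the highest of the 10, at 66.1 and 66.2 FPKM. KRT5 stood at 3.99 and 5.43 FPKM, behind CD44, KRT15, TP63 and KRT17. The order of KRT15, TP63 and KRT17 differed between the 2 clones, with KRT15 first in resistant 1 and KRT17 first in resistant 2.

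**Figure D1:**
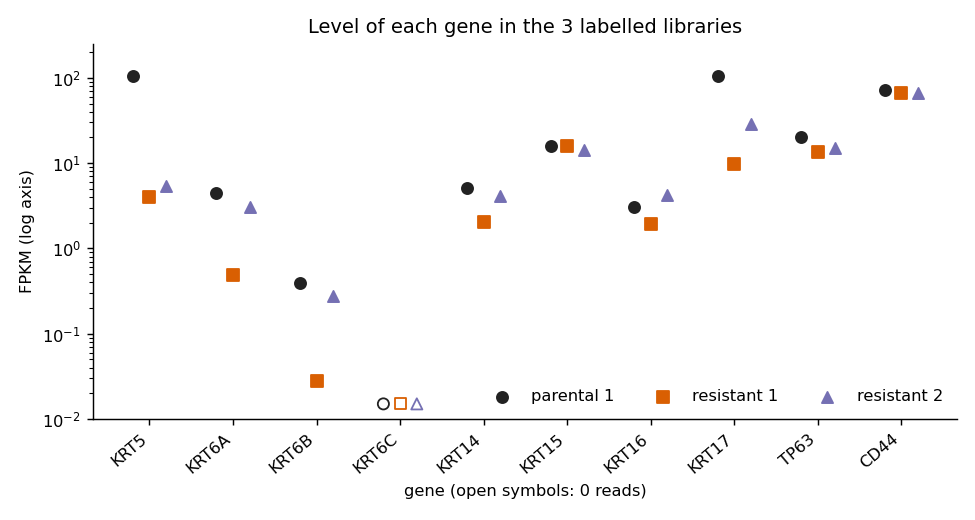
Level of each gene as FPKM (log axis) in parental 1 (circles), resistant 1 (squares) and resistant 2 (triangles), 1 point per library, with open symbols for 0 reads. KRT5 stands at 104.5 FPKM in the parental library and at 3.99 and 5.43 FPKM in the resistant libraries, whereas the 3 points of CD44 lie between 66.1 and 72.7 FPKM.

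Summed over the type II genes of this set, the level was 109 FPKM in parental 1 and 4.51 and 8.80 FPKM in resistant 1 and 2. The type I genes summed to 128, 29.6 and 51.4 FPKM in the same order. The type II to type I ratio of these sums was 0.856 in the parental library and 0.152 and 0.171 in the resistant libraries. It was not computed from the authors' group means, which stand far from these libraries for KRT5 and KRT6A (below). The ratio thus describes these 3 libraries and not the resistant line. KRT5 made up 95.5% of the type II sum in parental 1, 88.5% in resistant 1 and 61.7% in resistant 2. KRT17 made up 81.3% of the type I sum in parental 1, 32.7% in resistant 1 and 56.2% in resistant 2. KRT15 made up 12.3%, 54.1% and 27.6% in the same order, so that it was the larger part in resistant 1 and KRT17 in resistant 2. The 8 keratins of this set held 4.40% of the FPKM of all keratin genes in parental 1 and 0.824% and 1.34% in the resistant libraries in the same order, the rest being in the other keratin genes.

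The resistant libraries were then compared with the parental library gene by gene in 1 fit across 15643 genes with enough reads (edgeR quasi-likelihood test, Benjamini-Hochberg adjustment over all of them, called at an adjusted p under 0.05). The spread came from the 2 resistant clones and from all genes together, and the lone parental library was assumed to vary like them. Across all genes 137 were called, 0.876%, of which 91 (0.582%) were lower and 46 (0.294%) higher in the resistant line. Of the 9 genes of this set that were tested, 1 was called, KRT5, and it was lower. At an unadjusted p under 0.05 the set held 2, KRT5 and KRT17, against 9.7% of all genes, and both were lower, against 4.85% of all genes. The median log2 fold change of the 9 was -0.76, beside 0.03 over all genes tested, and without resistant 1 or resistant 2 it was -0.48 and -1.42. All but KRT16 had both resistant libraries below the parental one, 8 of 9, against 34.5% of all genes tested, and 2 of 9 were at least 2-fold below in both, against 3.65%. Some of these differences were within counting error. The counting intervals of parental 1 and resistant 1 overlapped for KRT15, and those of parental 1 and resistant 2 for KRT14 and KRT6B. None of the 9 had both resistant libraries above the parental one, which held for 35.2% of all genes tested.

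KRT5 (ENSG00000186081, hg19 chromosome 12, 52908359 to 52914471, minus strand) was read at 272 CPM in parental 1, 9.79 CPM in resistant 1 and 13.8 CPM in resistant 2, where CPM is the count per 1000000 reads after TMM scaling. Both resistant libraries were far below the parental one, 27.8-fold and 19.7-fold. Its log2 fold change was -4.52 ± 0.38 (SE), a 23.0-fold lower level, with an edgeR adjusted p of 0.000600, and it ranked 8 among all tested genes by p. Without resistant 1 or without resistant 2 the log2 ratio was -4.30 and -4.80. By the authors' group means, which include further clones, it was -2.50, so the size of the fall applies to these 3 libraries.

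KRT6A (ENSG00000205420, chromosome 12, 52880958 to 52887041) held 150 reads in parental 1, 18 in resistant 1 and 125 in resistant 2, or 10.7, 1.10 and 7.21 CPM. One clone was thus 9.67-fold below the parental library and the other 1.48-fold. The log2 fold change was -1.35 ± 0.79 (SE) with an edgeR adjusted p of 0.671, and it was -0.56 without resistant 1 and -3.26 without resistant 2. KRT6B (ENSG00000185479, chromosome 12, 52840435 to 52845910) had the same order of libraries at low depth, with 13, 1 and 11 reads. Its log2 fold change was -1.37 ± 1.17 (SE), with an edgeR adjusted p of 0.829. KRT6C (ENSG00000170465, chromosome 12, 52862300 to 52867569) held 0 reads in all 3 libraries, which allows up to 0.0905, 0.0828 and 0.0751 FPKM, and was not tested. Reads of the 3 KRT6 rows added together gave a log2 fold change of -1.36, with an edgeR adjusted p of 0.672.

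Of the type I keratins, KRT17 (ENSG00000128422, chromosome 17, 39775689 to 39781094, minus strand) was read at 196 CPM in parental 1, 17.2 CPM in resistant 1 and 53.4 CPM in resistant 2. Both resistant libraries were below the parental library, by 11.4-fold and 3.67-fold. The log2 fold change was -2.47 ± 0.53 (SE) and missed the threshold, with an edgeR adjusted p of 0.0784. Under the other settings that were tested its adjusted p lay between 9.8e-09 (edgeR, no filter on low counts) and 0.0784, and DESeq2 gave 0.0022. DESeq2 called 2 of the 8 genes to which it gave an adjusted p, KRT5 and KRT17, against 1.67% of all such genes. JUP (plakoglobin, a junction protein) covers 99.9% of the KRT17 span on the same strand and held 16829, 21186 and 26534 reads in the 3 libraries. How reads in the overlap were divided between KRT17 and JUP is not given in the sources used here. Reads of both added together gave a log2 ratio of 0.06, since JUP has most of them.

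KRT14 (ENSG00000186847, chromosome 17, 39738531 to 39743173), the partner of KRT5, was read at 8.67, 3.24 and 6.98 CPM, from 122, 53 and 121 reads in parental 1, resistant 1 and resistant 2. Its log2 fold change was -0.76 ± 0.55 (SE), with an edgeR adjusted p of 0.758. KRT15 (ENSG00000171346, chromosome 17, 39669995 to 39678781) stood at 84.9, 81.3 and 74.7 CPM. The 3 libraries were within 1.14-fold of one another, with a log2 fold change of -0.12 ± 0.34 (SE) and an edgeR adjusted p of 0.971. KRT16 (ENSG00000186832, chromosome 17, 39766030 to 39772151) was read at 5.11, 3.06 and 6.92 CPM, so that the parental library lay between the 2 clones. Its log2 fold change was -0.03 ± 0.59 (SE), with an edgeR adjusted p of 0.996, and its sign turned to 0.44 without resistant 1. Of the pseudogene rows with reads, KRT16P2 held 2 reads in each resistant library, and KRT16P3 and KRT17P3 held 1 read each in resistant 2.

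TP63 (ENSG00000073282, chromosome 3, 189349205 to 189615068) was read at 103 CPM in parental 1, 65.2 CPM in resistant 1 and 73.9 CPM in resistant 2. Both clones were below the parental library, by 1.58-fold and 1.40-fold, which gave a log2 fold change of -0.57 ± 0.34 (SE) and an edgeR adjusted p of 0.682. The full-length and N-terminally truncated forms of p63 are products of the same gene and are not separated in gene counts. CD44 (ENSG00000026508, chromosome 11, 35160417 to 35253949) was read at 343, 294 and 306 CPM, a log2 fold change of -0.19 ± 0.35 (SE) with an edgeR adjusted p of 0.946. Its standard and variant splice forms are likewise counted as 1. The antisense row RP1-68D18.4 within CD44 held 10, 6 and 21 reads and the overlapping row RP1-68D18.2 held 6, 5 and 7, both small beside the 4827, 4800 and 5303 reads of CD44.

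**Figure D2:**
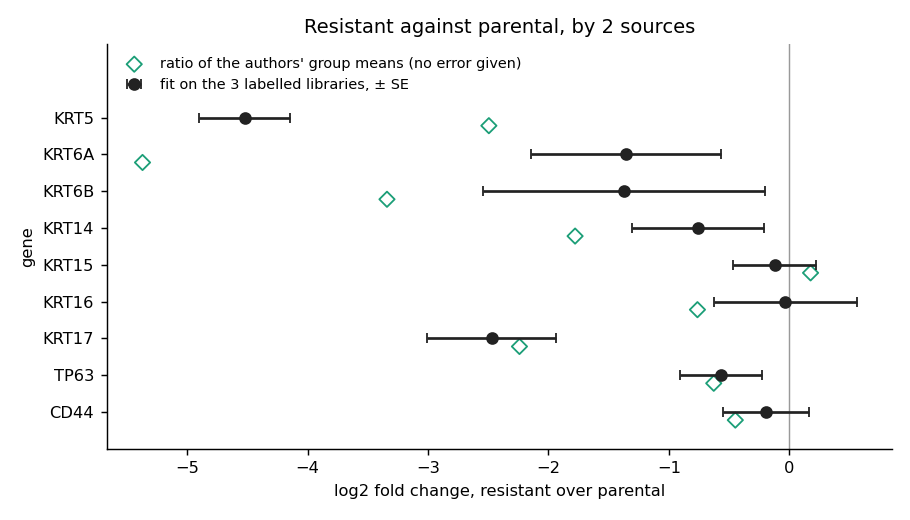
Log2 fold change, resistant over parental, of the 9 tested genes. Filled circles with bars give the fit on the 3 labelled libraries ± SE and open diamonds the ratio of the authors' group means, for which no error is given. KRT5 is at -4.52 by the first and at -2.50 by the second, and KRT6A at -1.35 and -5.37.

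The 2 resistant libraries also differed from each other. Resistant 2 held 6.54 times as much KRT6A as resistant 1 (exact binomial 95% interval of the ratio, 3.97 to 11.4) and 10.4 times as much KRT6B (1.51 to 446, from 11 reads and 1 read). The ratio was 3.10 for KRT17 (2.71 to 3.56), 2.26 for KRT16 (1.61 to 3.21) and 2.15 for KRT14 (1.54 to 3.03). It was 1.41 for KRT5 (1.15 to 1.74), 1.13 for TP63 (1.04 to 1.23), 1.04 for CD44 (1.00 to 1.08) and 0.919 for KRT15 (0.851 to 0.993). Resistant 2 was at least 2-fold above resistant 1 for 5 of the 9 genes, against 8.27% of all tested genes, and the 2 libraries were that far apart in either direction for 13.1% of all. These intervals cover counting error and compare 2 libraries, not 2 conditions.

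**Figure D3:**
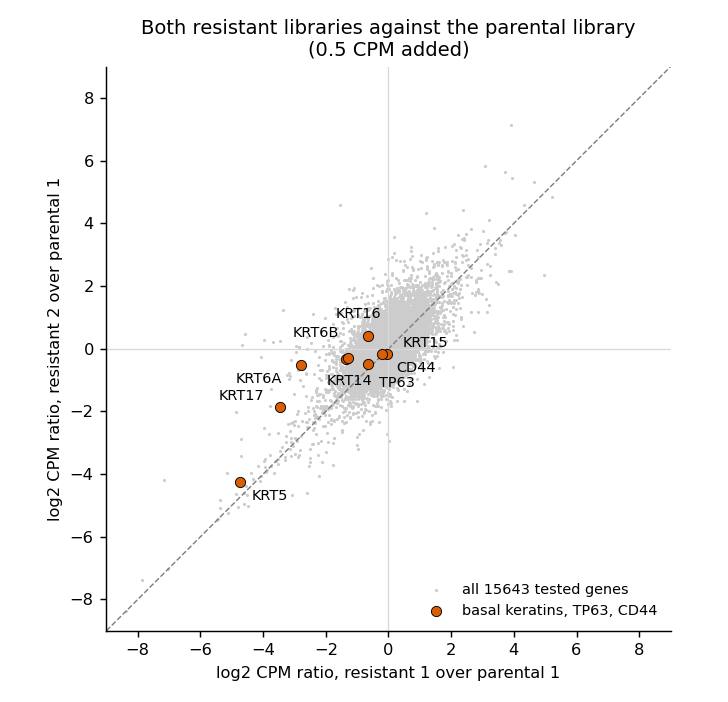
Each tested gene as a grey point, by the log2 CPM ratio of resistant 1 (horizontal) and resistant 2 (vertical) to parental 1 after 0.5 CPM was added, with the 9 tested genes of the set in colour and a dashed line where both clones are equal. KRT5 lies near the dashed line far below 0, whereas KRT17, KRT6A, KRT6B, KRT14 and KRT16 lie above the line.

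The deposited table also holds a group mean of normalized counts for each line, which includes the 3 labelled libraries and others without a label here. These means carry no error and were compared without a test. By them KRT5 went from 11540 to 2047 normalized counts, a log2 ratio of -2.50 after a pseudocount of 1, about 5.64-fold lower. Scaled to counts per 1000000, the resistant mean of KRT5 was 10.2 times the higher of the 2 labelled resistant libraries, and the parental mean 2.96 times parental 1. KRT6A went from 2111 to 50.02, a log2 ratio of -5.37, and its parental mean, scaled the same way, was 13.8 times parental 1. For both genes the group means thus stand far from the labelled libraries. The resistant mean of KRT5 was 140.6 per 1000000, beside 10.1 and 13.7 in resistant 1 and 2 and 264.5 in parental 1. Resistant libraries without a label thus held more KRT5 on average than these 2, and more than 140.6 per 1000000. The fall of KRT5 in resistant 1 and 2 is therefore not shown for them. The parental mean of KRT6A was 143.3 per 1000000, beside 10.4 in parental 1. The fold changes of the labelled libraries therefore do not describe every clone. KRT17 had a ratio close to that of the 3 libraries, with means of 3395 and 717 and a log2 ratio of -2.24. The log2 ratio was -3.34 for KRT6B, -1.78 for KRT14, -0.76 for KRT16, -0.63 for TP63 and -0.45 for CD44, each below 0 as in the 3 libraries. KRT15 was at 0.18, against -0.12 in the 3 libraries. At least 2-fold lower means in the resistant line were found for 5 of 9 genes, against 3.15% of the genes with a mean of at least 10.

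The type II keratin genes and KRT18 lie side by side on chromosome 12, and the other type I genes on chromosome 17. The table lists 42 keratin genes, of which 34 are outside this set, and 10 of these were tested. One was called, KRT4 of the type II cluster, which fell from 156 reads in parental 1 to 0 and 1 in the resistant libraries (edgeR adjusted p of 0.00159). That is 1 of the 10, against 0.876% of all genes tested. DESeq2 called 2 of the 10, KRT4 and KRT13, both lower, against 1.67% of the genes to which it gave an adjusted p. At an unadjusted edgeR p under 0.05 there were 3 of the 10 (KRT7, KRT4 and KRT13), all lower, against 9.7% of all genes. By either tool 0 were called higher. KRT4 is a keratin of non-keratinizing stratified epithelium and, among tested genes, the next after KRT5 on the chromosome, at 292 kb. On the other side, KRT6A and KRT6B lie 27.4 and 67.9 kb from KRT5.

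The median of surrounding genes is given beside each gene with no test, where the median of all tested genes was 0.03. It was lower than that around KRT5 and CD44, and slightly higher around KRT17 and TP63. Over the whole chromosome the median was also low for KRT5 (-0.36 over 774 genes) and CD44 (-0.31 over 853 genes). The 165 tested genes within 5 Mb on either side of KRT5 had a median log2 fold change of -0.55, and KRT5 was 3.98 below it (-3.98 on the log2 scale). Around KRT17 the median of 209 genes was 0.14, and KRT17 was at -2.61 relative to it. TP63 was at -0.76 relative to its surroundings, with a median of 0.20 over 37 genes. CD44 was at 0.46 relative to its own, where the median of 40 genes was -0.65, so that it stood above its neighbourhood while its own log2 fold change was -0.19.

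**Figure D4:**
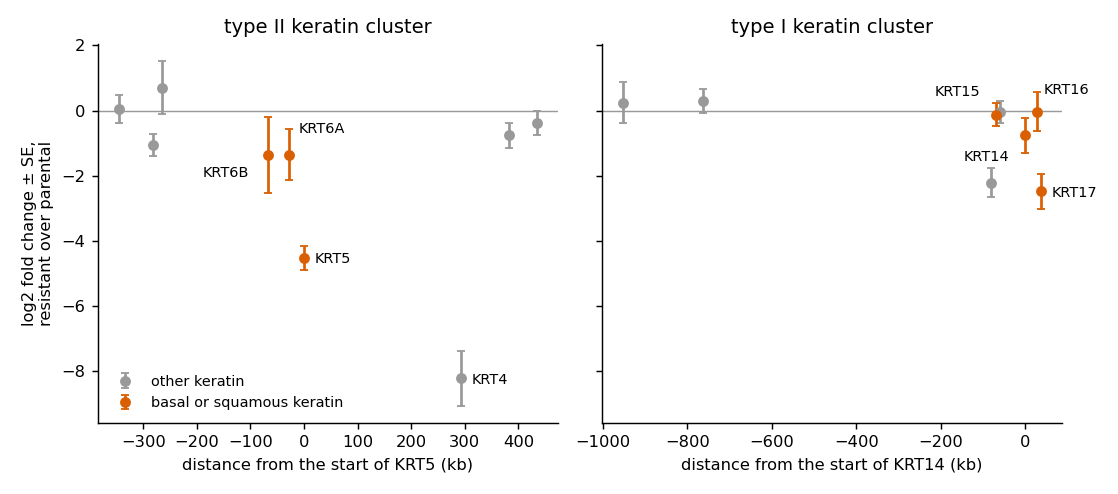
Log2 fold change ± SE, resistant over parental, of tested keratin genes of the type II cluster (left, by distance in kb from the start of KRT5, KRT18 included) and the type I cluster (right, from the start of KRT14). Basal and squamous keratins are in orange and other keratins in grey. KRT5 at -4.52 and KRT4 at -8.21 stand below the other type II genes, where the value of KRT4 rests on 1 read in the resistant libraries and on the prior count of the fit.

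Genes that work with p63, CD44 and the basal keratins were examined as lists. Over the 7 lists 104 distinct genes were tested, 1 was called higher and 2 lower by edgeR, 2.88% together, beside 0.876% of all genes. The counts at an unadjusted p under 0.05 given for each list stand beside 9.7% of all genes. None of the 11 hemidesmosome and basement membrane genes was called by edgeR or DESeq2, and their median log2 fold change was 0.20. At an unadjusted p under 0.05 there were 2, LAMB3 (laminin chain, 257, 446 and 879 CPM) and CD151 (tetraspanin, 284, 129 and 148 CPM), named after their values were seen. The most read of them, PLEC (plectin, which ties keratin filaments to hemidesmosomes), was at 8266, 5701 and 7249 CPM, and ITGA3, an integrin chain for laminin, at 2082, 1807 and 3251 CPM. Among 15 tested genes of the basal cell surface and p63-linked list, 0 were called by edgeR or DESeq2, 2 had an unadjusted edgeR p under 0.05 (JAG2 and THY1) and the median was 0.08. S100A2, a calcium-binding protein induced by p63, stood at 659.7, 595.7 and 678.3 CPM, and SFN (14-3-3 sigma) at 364.5, 380.3 and 721.6 CPM.

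Of 16 tested regulators of TP63 and stratified epithelium 0 were called by edgeR and 3 had an unadjusted p under 0.05 (KLF4, TFAP2C and GRHL3), with a median of -0.08. DESeq2 called 1 of them, GRHL3, a factor of epidermal barrier formation, which held 28 reads in parental 1 and 218 and 200 in the resistant libraries and was named after its values were seen. KLF5, a transcription factor of basal epithelium, was at 311.5, 130.9 and 337.3 CPM. The list of CD44 ligands, splicing factors, proteases and cytoskeletal partners had 22 tested genes, 0 called by edgeR or DESeq2, 0 with an unadjusted edgeR p under 0.05 and a median of 0.27. EZR (ezrin, which links CD44 to actin) was at 503, 826 and 559 CPM, and MMP14, a membrane protease that cleaves CD44, at 502, 646 and 999.7 CPM. Keratin filament partners had 16 tested genes, 0 called by edgeR or DESeq2, 2 with an unadjusted edgeR p under 0.05 (KRT7 and EPPK1) and a median of -0.12. In that list the simple-epithelium keratin KRT19 was at 4311, 3593 and 4790 CPM and KRT8 at 2274, 1667 and 1016 CPM.

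Of the squamous differentiation genes 13 of the 23 listed ones had enough reads to be tested, 1 was called higher and 1 lower by edgeR, with a median of 0.30. At an unadjusted p under 0.05 there were 6 of 13, 4 higher (SPRR1A, SPRR1B, SPRR2A and SPRR2D) and 2 lower (KRT4 and KRT13). DESeq2 called 4, SPRR2A and SPRR2D as higher and KRT4 and KRT13 as lower. The lower gene by edgeR was KRT4, described above. SPRR2D, a small proline-rich protein of the cornified envelope, rose from 8 reads in parental 1 to 133 and 241 in the resistant libraries, a log2 fold change of 4.26 ± 0.68 (SE) with an edgeR adjusted p of 0.0219. By the authors' group means its log2 ratio was 0.23, far smaller. For SPRR2A and SPRR1B these means gave -0.37 and -0.20, opposite in sign to the labelled libraries. They gave 3.20 for SPRR1A, -6.33 for KRT4 and -1.41 for KRT13, each of the same sign. Luminal urothelial markers had 14 tested genes with a median of -0.34 and 1 called lower, UPK1B, a uroplakin of umbrella cells. It held 74 reads in parental 1 and 0 in both resistant libraries (edgeR adjusted p of 0.00872), and its log2 ratio by the group means was -1.74. At an unadjusted edgeR p under 0.05 there were 4 of 14, UPK1B, UPK3B and VGLL1 lower and GRHL3 higher, and DESeq2 called 3, UPK1B, UPK3B and GRHL3.

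**Figure D5:**
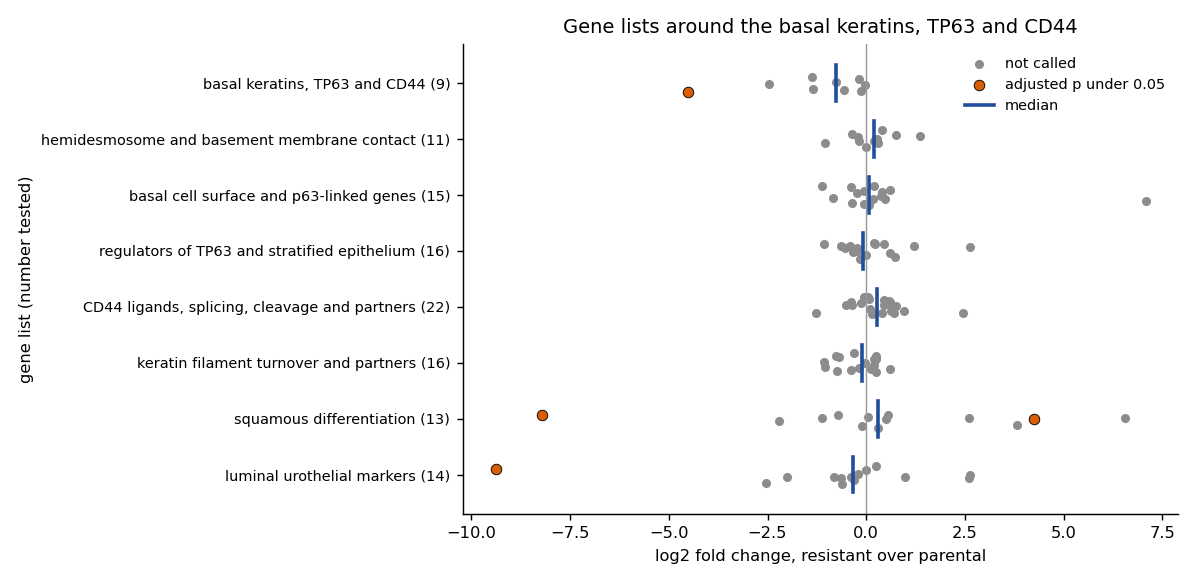
Log2 fold change, resistant over parental, of the tested genes of each list, with the number tested in brackets, the median as a vertical bar and genes with an adjusted p under 0.05 in orange. The median of the basal keratins, TP63 and CD44 is -0.76, and the medians of the other lists lie between -0.34 and 0.30. Points beyond 5 on either side are of genes with at most 1 read in one of the lines, and their place depends on the prior count.

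Genes with the pattern most like that of the leading gene of each role were sought over the 3 libraries, by the distance between their 2 log2 ratios, resistant 1 and resistant 2 over parental 1. Nearest to KRT5 were MMP13 (274, 10 and 17 reads, a distance of 0.196), LGR6 (93, 4 and 7 reads, 0.267) and RHCG (25, 1 and 2 reads, 0.358). Nearest to KRT17 were FBLN2, SLAMF7 and C6orf118, at 0.0933, 0.201 and 0.341, all with 31 reads or fewer in each library. For TP63 the nearest were FAM172A, PPP1CA and MCM5, and for CD44 ROBO1, RP4-584D14.5 and ZKSCAN3. Within a distance of 0.25 lay 1 gene for KRT5 and 2 for KRT17, beside 622 for TP63 and 1479 for CD44. With 3 libraries such a likeness is a description of 2 ratios.

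The libraries were checked against markers of epithelium and of other cell types. The 6 epithelial markers (EPCAM, CDH1, KRT7, KRT8, KRT18, KRT19) summed to 9481 CPM in parental 1 and 7293 and 7467 CPM in the resistant libraries, and 0 of the 6 were called by edgeR or DESeq2, with 1 (KRT7) at an unadjusted edgeR p under 0.05. Leukocyte markers summed to 0.781 to 1.53 CPM, endothelial markers to 0.426 to 2.02 CPM and melanocyte or neural markers to 2.83 to 9.16 CPM. Fibroblast markers summed to 147 to 173 CPM, nearly all from COL1A1 and COL1A2, while COL3A1 and LUM were at 2 reads or fewer in each library. In these bulk samples fewer cells with a gene and less RNA per cell cannot be told apart.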

How the data were processed

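RNA-Seq of single-cell clones of the 5637 line was analysed from the deposited gene table. The authors deposited raw read counts and FPKM per library and, per group, a mean of normalized counts (a signal per gene), together with their own DESeq2 log2 fold changes, p-values and adjusted p-values, which were not used. Poly-A mRNA was sequenced by a service, with both an unstranded and a strand-specific kit described, so the strand setting is unknown. The submitters' processing notes name CASAVA 1.8 and hg19, and the counting tool is not given in the sources used here. The deposited FPKM values equal the deposited counts divided by the table's gene length and the library's gene total. Values of 6 per-library columns without a sample label, 3 of counts and 3 of FPKM, were not used. No row lacks a gene name.

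The genes and lists were chosen with earlier results of these data known, and no p was adjusted over them alone. Counts of 1 parental and 2 resistant libraries were filtered (edgeR filterByExpr, minimum count 10), scaled by TMM (factors 0.974, 1.03 and 0.995) and fitted by edgeR's quasi-likelihood test (edgeR 4.0.16, R 4.3.3), with 1 residual degree of freedom, 8.94 prior degrees of freedom and a common biological coefficient of variation of 0.281. The study describes the clones as independently derived, and the resistant line they come from as made by rising gemcitabine exposure. The p-values rest on the spread between the 2 resistant clones and on that of all genes together. They do not cover the spread between separate selections of resistance or between parental clones. Intervals (95%, exact Poisson per library, exact binomial for ratios) and the limit of 3 reads for a count of 0 cover counting error only. Each SE of an edgeR fold change is the size of the log2 fold change divided by the square root of the test's F statistic. It restates that test and is not a separate measure of spread. Levels per length use the table's gene lengths.

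Alternatives were RLE size factors, no filter, DESeq2 1.42.0, an adjusted p under 0.10, a prior count of 2, a mean of at least 10 CPM, each resistant library left out, the authors' group means with a pseudocount of 1, a 5-Mb window and the whole chromosome. Sums of KRT17 with JUP and of the KRT6 rows were added after seeing the data. Genes were named by a rule: the 10 genes, called genes of each list (at most 4 in each direction) or else the 2 with the highest mean CPM, overlapping and pseudogene rows with reads, and the 3 genes most like the most read gene of each role. Genes named for an unadjusted p or for a DESeq2 call alone were chosen after their values were seen. Other keratins were given by counts, and those named beyond KRT4 and KRT13 belong to a list or to the markers. One further gene that the rule covers is not reported here. KRT1, SERPINB3, CRCT1, DCN, PECAM1 and CD68 were not analysed here. Transcripts and positions of printed coding bases are from GENCODE 29 (KRT5 aligned with gaps in Biopython 1.88), and promoters from RefSeq. The fit was also run on counts simulated from its own dispersion estimates, with the parental library varying like the resistant ones. Such a run cannot check that assumption. Scripts ran under Python 3.11.15 with pandas 2.3.3, scipy 1.17.1 and numpy 2.4.6, and plots were drawn with matplotlib 3.10.9.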

Additional observations from a re-analysis of the deposited data

How the results depend on the processing

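The count of genes called by edgeR was 137 and rose to 235 with RLE size factors, 534 with no filter on low counts and 229 at an adjusted p under 0.10, and DESeq2 called 246. The split of higher and lower calls was 46 and 91 in the reported fit, 96 and 139 with RLE, 273 and 261 without the filter, and 121 and 125 with DESeq2. Of the 137 genes, 137 were also called with RLE and without the filter, and 131 by DESeq2. In each of these 4 settings the genes of the set that were called numbered 2 in place of 1, KRT17 joining KRT5. With RLE the adjusted p of KRT17 was 0.0202, and the cause of the shift in these counts was not tested. List genes called numbered 3, and 7 with RLE, 10 without the filter, 7 with DESeq2 and 7 at 0.10. The median log2 fold change of the set was -0.76, between -1.42 and -0.48 with 1 resistant library left out, -0.57 over the 5 genes with a mean of at least 10 CPM, and -1.78 by the authors' group means, which include other libraries. Left-out fits have no residual degrees of freedom and give no test. Of 65 alternatives for single genes 62 kept the sign. The exceptions were KRT15 by the group means, KRT16 without resistant 1, and KRT17 summed with JUP. A kept sign is not a kept size: by the group means KRT5 went from -4.52 to -2.50 and KRT6A from -1.35 to -5.37. Relative to surrounding genes, CD44 moved from 0.46 to 0.35 in the 5-Mb window and to 0.12 against its chromosome. No paired analysis was made because nothing in the labels pairs a parental with a resistant clone. Low depth limits KRT6B and KRT6C, and 1 parental library limits every comparison.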
